A study of Mus musculus with 2 samples.

Results

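The genes described here are 44 interferon-stimulated genes (ISGs) of the mouse, read on the arrays of MIN6 cells that carried an FTO lentivirus or its empty vector. They are listed by name and were chosen by their measured difference between these arrays, so the differences below are a description and no test was made on them. A probe was matched to 41 of the 44 genes out of 18513 named genes kept on the arrays, and none was matched to Mx1, Mx2 or Oas1b. The 41 genes had 55 probes, and all 55 were well above background on both arrays.

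MIN6 is a beta-cell line from an insulinoma of a transgenic C57Bl/6 mouse, and both cultures were used at passages 15 to 20. The culture labelled FTO was transduced with pLVX-IRES-ZsGreen carrying mouse FTO, an RNA demethylase, and the control culture with pLVX-IRES-ZsGreen alone, so both cultures carry a lentiviral vector and the ZsGreen reporter. The series asked which transcripts differ when FTO is overexpressed. Total RNA was labelled with Cy3 and hybridized to 1 one-color Agilent whole mouse genome array per condition. With 1 array per condition there is no replicate check, the variation between cultures is unknown, and a difference between the arrays cannot be told apart from one between the cultures or the hybridizations. Cultures without virus were not analysed here.

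Type I interferons bind a cell-surface receptor whose JAK kinases phosphorylate STAT proteins. With IRF9 these form a complex that binds the interferon-stimulated response element in the promoters of ISGs. The products sense viral nucleic acids, degrade or withhold RNA, modify proteins and block virus entry, and pancreatic beta cells also respond to interferon, for example in autoimmune insulitis.

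On the array labelled FTO the ISGs sat higher as a group, by small amounts. The median difference of the 41 genes (array labelled FTO minus array labelled control, log2 of quantile-normalized signal, brightest probe of each gene) was 0.36, which is 1.28-fold, with the middle of the genes between 0.27 and 0.44. The median of all 18513 named genes was 0.0064. Of the 41 genes 39 were above 0, against 51.6% of all named genes. At least 1.2-fold higher were 31 of 41 (10.8% of all named genes), at least 1.2-fold lower were 0 of 41 (11.3%), and more than 2-fold different were 0 of 41 (2.68%). These counts restate the choice of the genes and nothing is read from them.

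The sequence of the promoters was not used to choose the genes. A core of the response element, GAAA then any 2 bases then GAAA, on either strand, was searched in RefSeq promoter windows (GRCm38.p6, from 250 bases before to 50 bases after each annotated start). Windows were found for 33 of the 44 genes. Of these, 17 (51.5%) hold the motif, compared with 3.44% of all 32851 windows and 3.99% of the 27025 genes that have one. Among the 14658 named genes that were kept on the arrays and have a window the share was 3.87%. The windows of 10 genes are printed to show how the motif is placed in the families described below. Each line gives 160 bases up to the last base before the start, 5′ to 3′ along the gene, with the matches in capitals (on the other strand the motif reads TTTC, any 2 bases, TTTC).
Isg15, chr4:156200819-156200978, minus strand: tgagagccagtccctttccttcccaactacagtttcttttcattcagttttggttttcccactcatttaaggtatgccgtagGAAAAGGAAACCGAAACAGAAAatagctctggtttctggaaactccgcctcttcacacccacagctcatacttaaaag
Ifit1, chr19:34640729-34640888, plus strand: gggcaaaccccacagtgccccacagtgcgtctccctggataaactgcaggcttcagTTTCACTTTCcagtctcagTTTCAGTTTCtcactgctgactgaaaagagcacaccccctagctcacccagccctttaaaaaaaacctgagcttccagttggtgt
Ifit3, chr19:34583369-34583528, plus strand: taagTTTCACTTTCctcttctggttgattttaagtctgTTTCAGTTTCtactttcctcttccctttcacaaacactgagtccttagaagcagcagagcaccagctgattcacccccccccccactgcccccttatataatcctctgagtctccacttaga
Oas1a, chr5:120907526-120907685, minus strand: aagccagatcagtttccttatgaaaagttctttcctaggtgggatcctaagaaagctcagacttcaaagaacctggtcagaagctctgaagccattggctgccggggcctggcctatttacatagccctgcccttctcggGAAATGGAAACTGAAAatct
Oas1g, chr5:120887614-120887773, minus strand: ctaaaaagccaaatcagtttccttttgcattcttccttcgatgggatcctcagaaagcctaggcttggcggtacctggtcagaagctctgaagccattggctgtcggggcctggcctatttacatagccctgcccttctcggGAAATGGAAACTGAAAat
Oas3, chr5:120777660-120777819, minus strand: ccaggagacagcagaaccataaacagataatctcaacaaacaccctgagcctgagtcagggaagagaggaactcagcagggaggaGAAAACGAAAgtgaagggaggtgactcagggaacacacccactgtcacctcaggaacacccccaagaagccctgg
Gbp3, chr3:142559884-142560043, plus strand: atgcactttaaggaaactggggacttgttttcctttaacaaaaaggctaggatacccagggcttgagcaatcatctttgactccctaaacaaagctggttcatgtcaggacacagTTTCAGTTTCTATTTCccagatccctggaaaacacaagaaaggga
Irgm1, chr11:48871421-48871580, minus strand: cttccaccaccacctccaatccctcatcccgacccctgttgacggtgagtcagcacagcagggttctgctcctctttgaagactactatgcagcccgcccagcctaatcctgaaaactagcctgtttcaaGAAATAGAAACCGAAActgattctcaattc
Bst2, chr8:71537473-71537632, minus strand: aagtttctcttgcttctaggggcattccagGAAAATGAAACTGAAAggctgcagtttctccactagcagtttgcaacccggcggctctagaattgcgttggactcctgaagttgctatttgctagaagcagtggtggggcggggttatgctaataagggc
Rsad2, chr12:26456453-26456612, minus strand: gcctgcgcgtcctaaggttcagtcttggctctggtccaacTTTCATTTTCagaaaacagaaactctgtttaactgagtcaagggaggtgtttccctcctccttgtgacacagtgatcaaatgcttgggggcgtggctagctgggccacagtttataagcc
Isg15 has 3 overlapping matches that begin 78, 72 and 66 bases before the start, so that the capitals run together. Ifit1 and Ifit3 each have a pair of separate matches on the opposite strand, at 104 and 85 bases and at 156 and 122 bases before the start. In Oas1a and Oas1g the same run of capitals lies within the last 20 and 18 bases. In Ddx58, Eif2ak2, Ifih1, Ifitm3 and Trim21 the matches begin after the start, between 3 and 33 bases into the transcript. A match of these letters is a description of the window and not a binding site, and the windows without one do not show that the element is absent from the gene.

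The cytosolic sensors of nucleic acid were measured at high signal, apart from Zbp1. Ddx58 (RIG-I, a sensor of viral RNA ends) had a normalized log2 signal of 13.59 in the FTO culture and 13.28 in the control culture, a difference of 0.31. Ifih1 (MDA5, a sensor of long double-stranded RNA) read 13.58 and 13.18, a difference of 0.41 (0.405). Dhx58 (LGP2, which modulates both sensors) read 14.23 and 13.79, a difference of 0.44. Each value carries the spot error of Feature Extraction, the software that read the arrays, which was 0.20 on the log2 scale for a bright probe and covers the measurement of the spots only. The 3 helicases exceeded this error. Eif2ak2 (PKR, which halts translation when it binds double-stranded RNA) read 11.38 and 10.98, and Adar, an RNA-editing enzyme, 13.63 and 13.33. Their differences were 0.40 and 0.30. Zbp1, a sensor of Z-form nucleic acid, read 9.42 and 9.17, and its difference of 0.25 was below the 1.2-fold mark, which is 0.263 on the log2 scale. For Ddx58 and Zbp1 a further probe differed more, by 0.50 and 0.45, and for Ifih1 both probes differed by 0.41 when rounded.

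**Figure D1:**
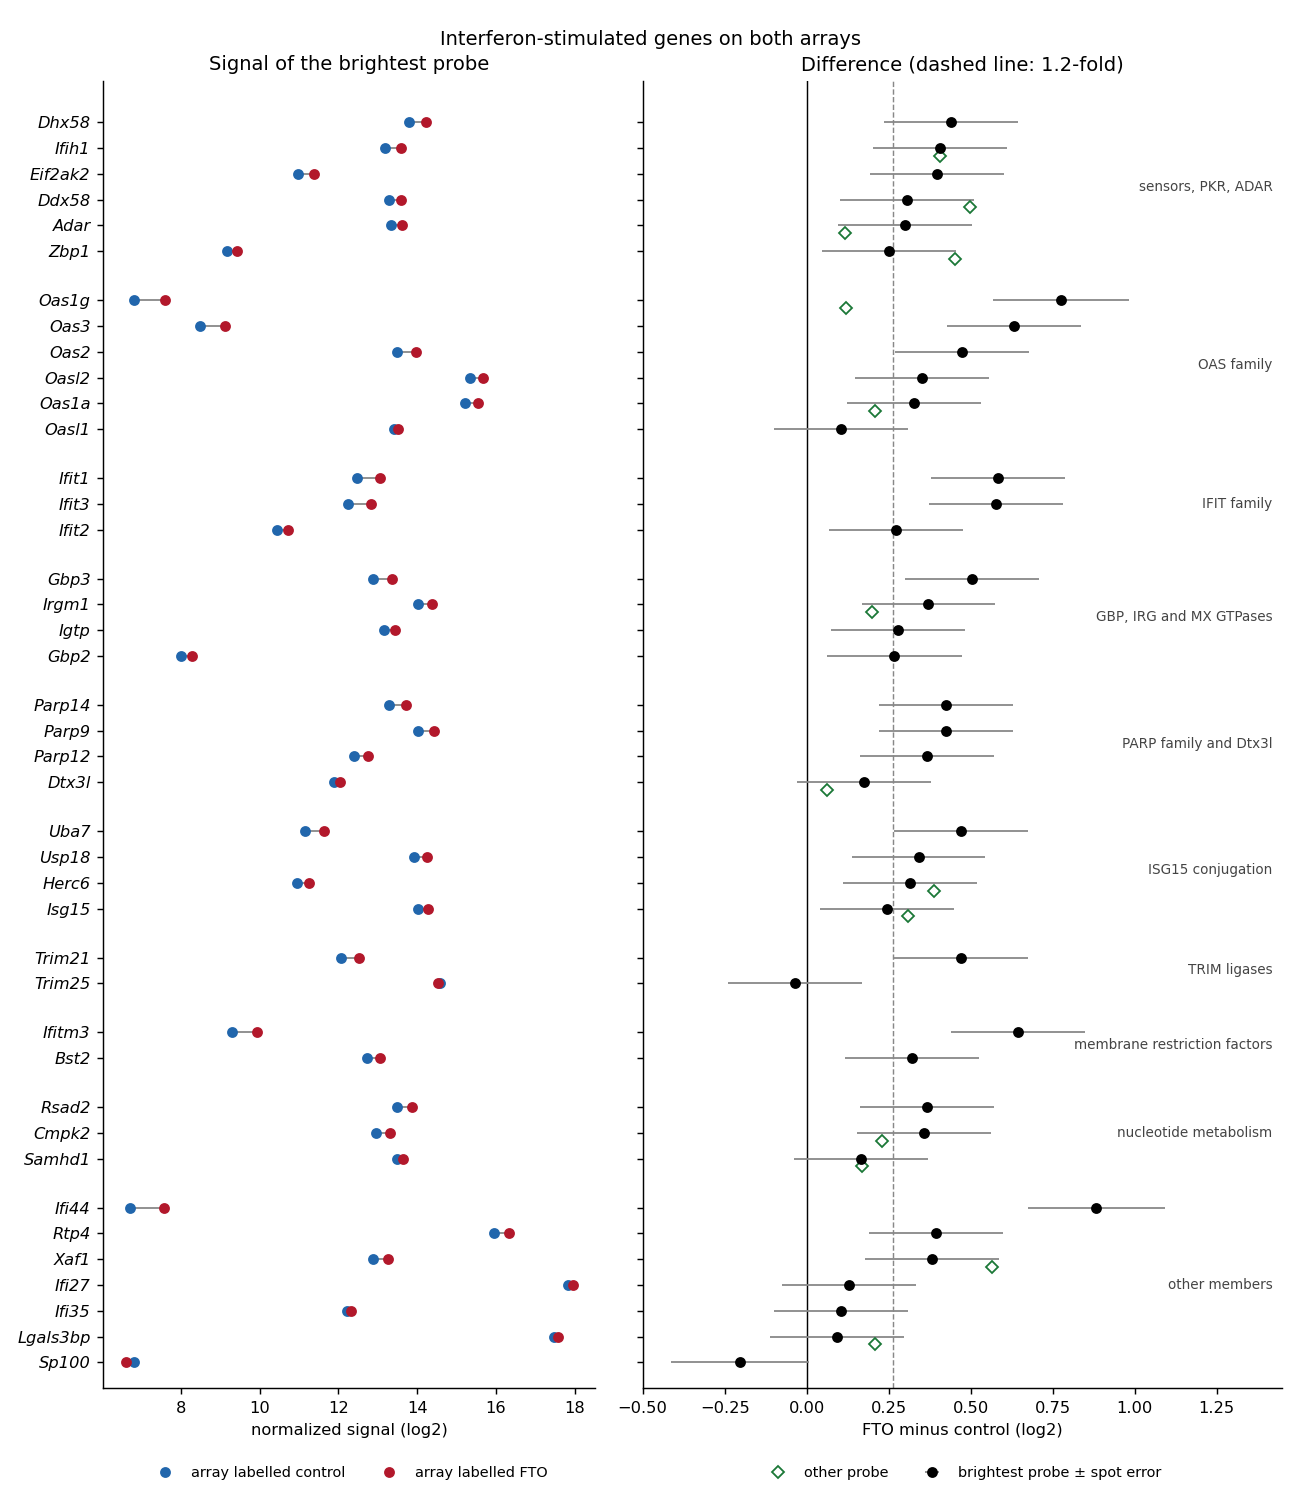
Normalized log2 signal of the brightest probe of 41 interferon-stimulated genes on both arrays (left) and the log2 difference, FTO minus control, with its spot error (right); open diamonds are further probes of the same gene. All genes except Sp100 and Trim25 sit right of 0, between 0.09 and 0.88, and 31 lie at or beyond the dashed 1.2-fold line.

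The OAS enzymes make oligoadenylates from ATP on double-stranded RNA and so activate the nuclease RNase L. Their median difference was 0.41 over 6 genes. Oas2 read 13.96 and 13.49 (log2 signal, FTO culture first, as in all pairs from here on), a difference of 0.47. Oas3 read 9.12 and 8.49 and differed by 0.63. Oas1a read 15.55 and 15.22 and differed by 0.33. The dimmest member of the family, Oas1g, read 7.60 and 6.83, a difference of 0.77. Its further probe, dimmer still at a mean log2 signal of 4.37, differed by 0.12, so the value of Oas1g depends on the probe. Oas1a and Oas1g are close paralogs, and how far their probes share signal is not known from the files. Oasl2 and Oasl1, the OAS-like proteins, read 15.68 and 15.33, and 13.52 and 13.42. Oasl2 differed by 0.35, while the 0.11 of Oasl1 was within its spot error.

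The IFIT proteins bind viral RNA that lacks the cap modification of the host. Ifit1 read 13.06 and 12.48, and Ifit3 read 12.83 and 12.25. Both differed by 0.58, the largest differences among ISGs with a mean log2 signal over 10. Before normalization the probe signals were 9889 and 4951 for Ifit1 and 8444 and 4214 for Ifit3. Ifit2, whose windows hold no match to the motif, read 10.71 and 10.44 and differed by 0.27, just above the 1.2-fold mark. Ifit3b, a near-identical neighbour of Ifit3 that is not among the 44 genes, differed by 0.66, and the probes of this pair may share signal.

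The interferon-inducible GTPases take part in the defence of cells against intracellular microbes. Gbp3 read 13.37 and 12.87, a difference of 0.51 (0.505). Irgm1 read 14.39 and 14.01 and differed by 0.37, and its further probe by 0.20. Igtp, also called Irgm3, read 13.43 and 13.15 and differed by 0.28. Gbp2 was dim, at 8.28 and 8.01, and its difference of 0.27 fell to 0.14 when each array was scaled to its 75th percentile instead. The Igtp probe is printed 10 times on each array, which shows the scatter of spots directly. With the normalization of its array applied to each spot, the log2 signals ran from 13.3 to 13.54 with a median of 13.44 for the FTO culture, and from 13.02 to 13.27 with a median of 13.15 for the control culture. The spots of the arrays came close to each other without overlap. Normalization here had removed most of the gap between unadjusted signals, whose medians were 12950 and 7846.

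Ifitm3 and Bst2 act at membranes: Ifitm3 hinders the fusion of virus and endosome, and Bst2 (tetherin) holds budding virus at the cell surface. Ifitm3 read 9.94 and 9.30, a difference of 0.64. Its probe is also printed 10 times. The normalized log2 signals of its spots lay between 9.86 and 10.08 for the FTO culture (median 9.93) and between 9.14 and 9.44 for the control culture (median 9.28), without overlap. The unadjusted medians were 1110 and 553.8. The SD of the 10 log2 signals was 0.072 for the FTO culture and 0.084 for the control culture. Spots of one probe repeat the measurement of one RNA sample and are no replicates of the culture. Bst2 read 13.05 and 12.73 and differed by 0.32.

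Among the ADP-ribosyltransferases, Parp9 read 14.44 and 14.01, Parp14 13.72 and 13.29, and Parp12 12.75 and 12.39. Their differences were 0.42, 0.43 and 0.37. Dtx3l, the ubiquitin ligase that partners Parp9, read 12.05 and 11.88. Its difference of 0.17 was within the spot error, and its further probe differed by 0.06.

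ISG15 is a ubiquitin-like protein that is joined to other proteins by an enzyme chain. Isg15 itself read 14.26 and 14.02, with a difference of 0.25 (0.245) from its brightest probe and 0.31 from the other, either side of the 1.2-fold mark. Uba7, the activating enzyme, read 11.64 and 11.17 and differed by 0.47. Herc6, the mouse ligase, read 11.25 and 10.94 and differed by 0.32 (0.315). Usp18, which removes ISG15 and restrains interferon signaling, read 14.25 and 13.91 and differed by 0.34. All 4 genes of the chain were above 0, beside 51.6% of all named genes. They were chosen by this contrast, and nothing is read from this count.

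The TRIM ligases were apart from each other. Trim21, a cytosolic antibody receptor, read 12.53 and 12.06, a difference of 0.47. Trim25, the ligase that promotes RIG-I signaling, read 14.54 and 14.58, a difference of -0.04 that was within its spot error and became 0.01 with cyclic loess normalization. The probes of Trim21 and Trim25 each had a spot in a region of lost signal, and neither gene had a value once such regions were left out. The enzymes that act on nucleotides were closer. Rsad2 (viperin, which makes a chain-terminating nucleotide) read 13.86 and 13.50 and differed by 0.37. Cmpk2, its neighbour in the genome and a nucleotide kinase, read 13.32 and 12.97 and differed by 0.36. Samhd1, which degrades dNTPs, read 13.64 and 13.48, and both of its probes differed by 0.17, which was within the spot error.

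Of the remaining genes, Ifi44 was dim, at 7.59 and 6.70, and had the largest difference of the 41, 0.88, from probe signals of 210 and 97.8 before normalization. Rtp4, a chaperone of receptor transport, read 16.33 and 15.94 and differed by 0.39. Xaf1, a pro-apoptotic antagonist of XIAP, read 13.26 and 12.87 and differed by 0.38, and by 0.56 from its further probe. Ifi35 read 12.31 and 12.21, a difference of 0.11. The very bright genes Ifi27 and Lgals3bp (a secreted galectin-binding glycoprotein) read 17.95 and 17.82, and 17.57 and 17.47. Their differences of 0.13 and 0.09 were within the spot error, and both turned below 0 with 75th percentile scaling (-0.21 and -0.18). Sp100, a nuclear body protein, read 6.61 and 6.81, and its difference of -0.20 was also within the spot error. With 75th percentile scaling it was -0.44, past the spot error and the 1.2-fold mark on the lower side. In all, 33 of the 41 genes were higher by more than their own spot error, against 14.3% of all named genes, and 27 of the 34 with a mean log2 signal over 10, against 7.63%. These counts too come from the contrast that chose the genes, and nothing is read from them.

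The size of a difference depended on the signal. On these arrays dim probes scatter widely, and 19.4% of named genes with a mean log2 signal up to 10 were at least 1.2-fold higher, compared with 3.43% of the 9991 genes over 10. Of the ISGs 34 were over 10. Their median was 0.35, 33 were above 0 (53.6% of all such genes) and 26 were at least 1.2-fold higher. They made up 7.58% of the 343 bright genes past this mark. Among the bright genes with the largest positive difference, ISGs were 3 of the first 20, 9 of the first 50 and 17 of the first 100. ISGs were 34 of all 9991 bright genes. These counts also come from the contrast that chose the genes, and nothing is read from them. The 7 dimmer ISGs ran from -0.20 to 0.88 with a median of 0.63. For comparison, probes printed 10 times had a median SD between spots of 0.05 to 0.06 on the control array at log2 signals over 10.

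**Figure D2:**
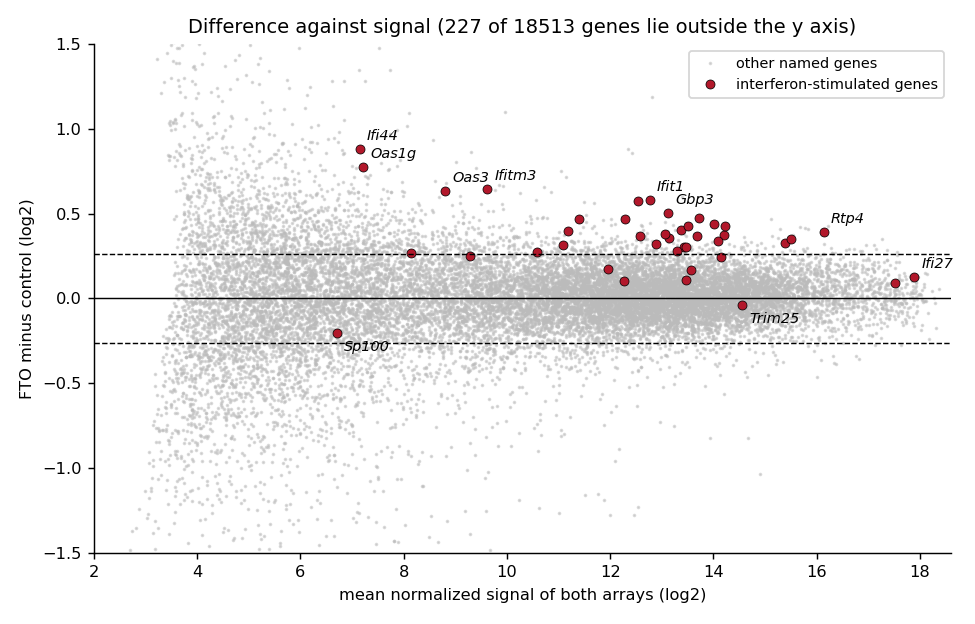
Log2 difference (FTO minus control) against the mean normalized log2 signal of both arrays, for 18513 named genes (grey) and 41 interferon-stimulated genes (red); dashed lines mark 1.2-fold either way, and 227 genes lie outside the axis limits of 1.5. The 34 red points over 10 form a band from -0.04 to 0.58 along the upper edge of the grey cloud, and the dimmer ones spread from -0.20 to 0.88.

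A further probe was available for 14 of the genes. In all 14 pairs both probes were above 0, and in 13 the gap between them was within their combined spot error. The exception was Oas1g, with a gap of 0.66. The further probes ran from 0.06 to 0.56 with a median of 0.22, and the brightest probes of the same genes had a median of 0.31. Of the 9 pairs whose brightest probe was at least 1.2-fold higher, 4 had a further probe past this mark too. In 321 named genes with a pair of probes and a brightest probe past the mark, the further probe was above 0 in 73.2% and past the mark in 34.3%. Both probes of a gene read the same RNA on the same array, and those of the ISGs belong to the contrast by which the genes were chosen.

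**Figure D3:**
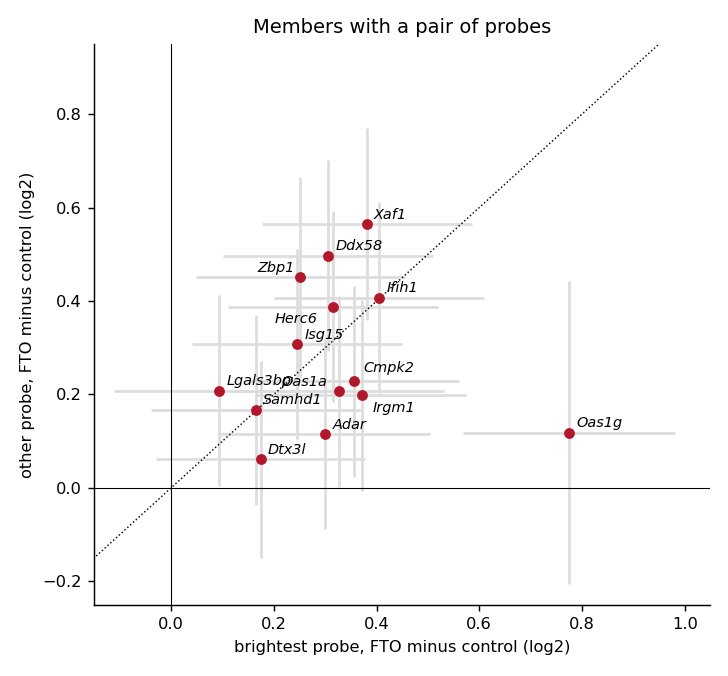
Log2 difference (FTO minus control) of the further probe against that of the brightest probe for the 14 genes with a pair of probes; bars are spot errors and the dotted line marks equal values. All 14 points lie above 0 on both axes, and Oas1g, at 0.77 and 0.12, lies farthest from the line.

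Genes with the promoter motif were compared with those without it. The 17 ISGs with a match ran from 0.25 (Isg15) to 0.77 (Oas1g) with a median of 0.40, and 16 of them were at least 1.2-fold higher. The 16 ISGs whose window holds no match ran from -0.20 to 0.88 with a median of 0.29, and 9 were past the mark. Among genes outside the list, the 550 with a match had a median of 0.02 (0.0161) and 14.9% were at least 1.2-fold higher, and the 14075 without one had a median of 0.0056 and 10.4%. With bright genes alone these shares were 6.1% of 246 genes and 3.08% of 7788. The difference between ISGs with and without the motif was not tested. The values of both groups of ISGs come from the contrast that chose the genes, and nothing is read from their counts or medians.

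**Figure D4:**
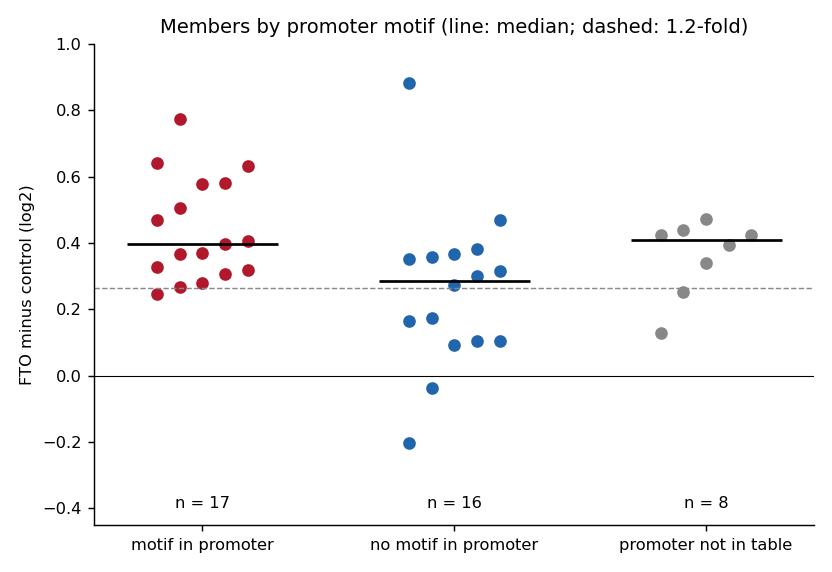
Log2 difference (FTO minus control) of the 41 interferon-stimulated genes by promoter motif, 1 point per gene, with the median of each group as a line. The 17 genes with the motif lie between 0.25 and 0.77, the 16 without it between -0.20 and 0.88, and 8 had no promoter window.

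Other genes of the pathway were read from lists that were drawn up with earlier results of these data known. Of 62 further interferon-inducible genes 55 were kept on the arrays, and their median was 0.10. Of these, 40 were above 0, beside 51.6% of all named genes. At least 1.2-fold higher were 11 and at least 1.2-fold lower were 5, again beside 10.8% and 11.3%. Nothing is read from these counts. The higher genes were the GTPases Iigp1 (0.69), Irgm2 (0.48) and Ifi47 (0.42), the RNA sensor Tlr3 (0.57), Ifit3b, Trim34a (0.53), Phf11d (0.51), the DNA-sensor family member Ifi204 (0.47), the death ligand Tnfsf10 (0.42), the exoribonuclease Pnpt1 (0.29) and Slfn9 (0.29). Trim34a had 2 probes that differed in direction. The brightest had a spot in a region of lost signal. Once such regions were left out, Trim34a was -0.26 from its other probe, and the mean of both probes was 0.15. Slfn9 was 0.25 with normexp background correction, short of the 1.2-fold mark. Pnpt1 had no value once such regions were left out. The lower genes were dim: Slfn2 (-0.44), Gbp5 (-0.44) and Epsti1 (-0.42), and Gbp4 and Cxcl9, both not well above background in the FTO culture. Gbp4 was at least 1.04-fold lower there, and no fold can be given for Cxcl9. With normexp background correction Slfn2 became -0.28, Gbp5 -0.30, Epsti1 -0.07, Gbp4 -0.06 and Cxcl9 -0.10, so that only Slfn2 and Gbp5 stayed past the 1.2-fold mark.

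The genes that make and carry the interferon signal were read next. In the list of interferons, receptors, kinases, STATs and IRFs, 26 of 27 genes were kept, and the median was 0.05. At least 1.2-fold higher were 5 genes (10.8% of all named genes) and at least 1.2-fold lower were 3 (11.3%). Nothing is read from these counts. Stat2 and Irf9, which act in the complex, differed by 0.19 and 0.16. Irf7, which is itself induced and amplifies interferon production, differed by 0.31. The kinase Jak2 differed by -0.36 and Stat3 by -0.29, and Irf8, not well above background in the FTO culture, was at least 1.25-fold lower there. With normexp the difference of Irf8 was -0.01 (-0.0091), and those of Jak2 and Stat3 were -0.36 and -0.28.

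Interferon genes were near the lower end of the signal range. Ifna5 differed by 0.95 from signals of 275 and 121 before normalization, Ifnb1 by 0.74 from signals of 84.8 and 45.9, and Ifna4 by 0.38 from signals of 47.0 and 33.7. With normexp background correction these became 0.73, 0.42 and 0.08. The measured RNA does not show how much interferon the cells released. In the list of sensors and adaptors the median was -0.01. At least 1.2-fold higher was 1 of 12 genes (Tlr3, already named), beside 10.8% of all named genes. At least 1.2-fold lower were 2, the endosomal receptors Tlr9 (-0.87) and Tlr7 (-0.42), beside 11.3%. The only Tlr9 probe had a spot in a region of lost signal, and Tlr9 had no value once such regions were left out. None of the 7 negative regulators was 1.2-fold different either way, beside the same shares of all named genes, and their median was -0.03. Nothing is read from the counts of these short lists.

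**Figure D5:**
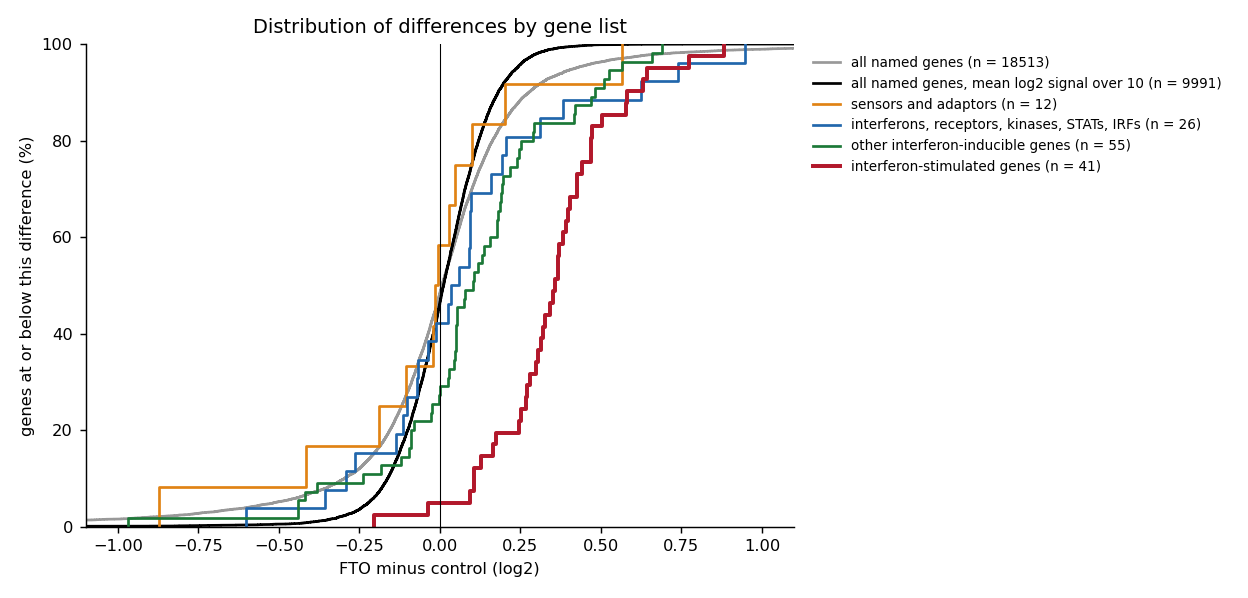
Cumulative share of genes (%) by log2 difference (FTO minus control) for the 41 interferon-stimulated genes, 3 other lists of the pathway, all 18513 named genes and the 9991 with a mean log2 signal over 10. The curve of the interferon-stimulated genes lies right of the others through most of its length, with a median of 0.36 beside 0.10, 0.05 and -0.01 for the other lists.

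Several facts about the arrays bear on these values. Before normalization the array labelled FTO was brighter, with a median spot signal of 292 compared with 237 on the control array, and the median log2 ratio was 0.37 for all named genes and 0.78 for the ISGs. Normalization thus removed a common shift about as large as the difference that remained for the ISGs. Regions of lost signal covered 6 blocks of the array labelled FTO and 2 of the control array. The brightest probe of 8 ISGs had a spot there (Dhx58, Herc6, Ifitm3, Igtp, Oas3, Parp9, Trim21 and Trim25). The median was 0.43 for these 8 and 0.35 for the rest. The Fto probe differed by 0.06 with a spot error of 0.20. The construct carries the coding sequence, and whether the probe lies inside it is not known from the files, so this value checks neither label. Cultures and arrays are named here by their labels.

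Marker genes were read beside the ISGs. All 12 beta-cell markers were kept and ran from -0.24 (Ins2) to 0.45 (Slc2a2) with a median of -0.02. Of 9 leukocyte and macrophage markers 7 were kept, with a median of -0.19 and a lowest value of -0.31 (Csf1r), and Ptprc, which marks all leukocytes, read 33.7 and 38.0 before normalization. Of 6 fibroblast and endothelial markers 4 were kept, with a median of -0.23, and the 4 markers of other islet cells had a median of -0.03. The part of other cells, of vector dose and of RNA input in the difference of the ISGs was not tested.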

How the data were processed

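RNA of MIN6 cells with the FTO lentivirus or the empty vector was hybridized to Agilent whole mouse genome arrays, 1 per condition. The deposited spot tables hold the intensity of each spot as Agilent Feature Extraction 11.0.1.1 wrote it (background-subtracted, with an error estimate and flags). The deposited processed table lists 33870 probes on a log2 scale, after quantile normalization by the authors in GeneSpring GX.

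Control spots and outlier spots (148 on the array labelled FTO, 141 on the control array) were left out, no spot was saturated, and repeated spots were averaged as log2 values. Quantile normalization of the 39417 probes used limma 3.58.1 (R 4.3.3). Symbols came from RefSeq (GRCm38.p6) through each probe's accession, which named 27224 probes of 20653 genes. A gene was kept if a probe passed the background flag on 1 array or both, and was read from its brightest such probe, leaving 18513 genes. A fold given as "at least" compares the bright signal with the higher of the dim probe's signal and the lowest signal well above background on that array. Tables and figures used Python 3.11.15, pandas 2.3.3, numpy 2.4.6 and matplotlib 3.10.9, and the steps were checked on simulated data.

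The members and lists were chosen with earlier results of these data known. The text names every member, and of the fixed pathway lists the genes at least 1.2-fold different plus Stat2, Irf9, Irf7 and Fto; values of some listed genes are not reported here, and the marker genes named were picked after their values were seen. With 1 array per condition no test, standard error or p-value was computed. On the array labelled FTO 82.0% of probes were well above background, and on the control array 84.9%; the number of arrays limits the precision. Alternatives were 75th percentile scaling, cyclic loess, normexp (offset 50), other background filters, the mean of a gene's probes, the deposited table, and leaving out blocks of lost signal.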

Additional observations from a re-analysis of the deposited data

How the results depend on the processing

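Under the 8 alternatives the median of the interferon-stimulated genes ran from 0.34 (normexp) to 0.38 (cyclic loess), and the counts above 0 and at least 1.2-fold higher stayed within 1.5 times their reported values. With 75th percentile scaling the median of all named genes moved to -0.06 (-0.0555) and the share of them at least 1.2-fold higher from 10.8% to 4.92%. By single genes, 26 were at least 1.2-fold higher under each setting in which they had a value. A further 8 were so under none, and 7 under some (Adar, Gbp2, Herc6, Ifit2, Isg15, Oas1a, Zbp1). Dhx58, Oas3, Parp9 and Trim21, counted among the 26, and Trim25 had no value once the blocks of lost signal were left out. Signs turned for Ifi27 and Lgals3bp (75th percentile scaling and cyclic loess) and for Trim25 (cyclic loess). The value of Oas1g was 0.54 with normexp and 0.45 as the mean of its probes, that of Ifi44 was 0.64 with normexp, and that of Sp100 was -0.44 with 75th percentile scaling, which made 1 gene of the 41 at least 1.2-fold lower. Leaving out the blocks of lost signal left 36 of the genes, with a median of 0.36. The cause of these shifts was not tested. No paired analysis was possible because each condition has 1 array.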
